A study of Mus musculus with 6 samples.

Results

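The genes described here encode 38 proteins of the centrosome: the scaffold of the pericentriolar material, the gamma-tubulin ring, augmin, the centriolar satellites, the appendages and linker of the centriole, and the centriole itself. They were chosen by symbol, and all 38 were found among the 24041 genes of the deposited count table. All 38 also passed the filter on low counts that left 14451 genes to test. Messenger RNA had been sequenced from mouse cerebral cortex cells that took up plasmid DNA under electric pulses (electroporation) and were sorted for green fluorescent protein (GFP). The mutant group had received GFP with mutant PRPF6 (3 libraries), and the wild-type group GFP with wild-type PRPF6 (3 libraries). Both groups carried a PRPF6 plasmid, so a higher level with mutant PRPF6 and a lower level with wild-type PRPF6 cannot be told apart. The labels give no mutation and no species of the plasmid, and nothing in them ties a library to an animal. The p-values therefore measure the spread between libraries alone, and that spread may be technical.

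The centrosome is a pair of centrioles within a cloud of proteins that anchors and nucleates microtubules. The older centriole carries appendages that hold microtubules and dock the primary cilium, and satellites are granules around it that ferry its proteins. In the developing cortex the radial glia keep their centrosomes and cilia at the ventricular surface, and many of these genes are known for microcephaly or ciliopathy when mutated. PRPF6 is a pre-mRNA splicing factor, part of the spliceosome. The series title names the centrosome of neural cells, and the comparison asks whether transcripts of centrosome genes differ between cells given mutant and wild-type PRPF6. Counts per gene say nothing of how the transcripts were spliced.

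Where 3 values of a group are given, they are those of its replicates 1, 2 and 3, in that order. Total expected counts were 45115122 to 57475218 in the mutant libraries and 47564897 to 60600617 in the wild-type libraries. Prpf6 itself was at 125 to 145 CPM (counts scaled to the depth of the library) with mutant PRPF6 and at 124 to 166 CPM with wild-type PRPF6, a log2 difference of -0.073 ± 0.17 (SE). Markers of cortical progenitors and neurons were present in every library, and some libraries stood apart. The alpha-globin gene Hba-a1, which has a near-identical copy, was at 24.5 to 326 CPM in the mutant libraries and at 359 to 5737 CPM in the wild-type libraries. The sum over 12 red blood cell markers was 81.9 to 1633 CPM with mutant and 992 to 17151 CPM with wild-type PRPF6, and the sum over 7 markers of meningeal fibroblasts was 15.4 to 167 and 125 to 1650 CPM. Both sums were highest in wild-type replicate 3. Of the young neuron markers the most abundant were Tubb3, at 728, 656 and 550.2 CPM in the mutant libraries and 544, 590.4 and 949.8 CPM in the wild-type libraries, and Neurod6, at 57.5, 693 and 608 CPM in the mutant libraries and 1276, 736 and 583 CPM in the wild-type libraries. These markers did not follow each other: mutant replicate 1 was lowest in Neurod6 and the highest mutant library in Tubb3. Sums over 11 radial glia markers were 2626 to 4727 CPM with mutant and 1927 to 2718 CPM with wild-type PRPF6, and sums over 9 markers of young neurons were 1370 to 2909 and 2739 to 4044 CPM. All 11 radial glia markers had fitted log2 differences above 0 and all 9 young neuron markers below 0. Sums over 6 microglia markers were 20.6 to 611 CPM in the mutant and 79.7 to 233 CPM in the wild-type libraries. None of the found markers in these lists was at 0 in every library, and the part of these other cells in the results that follow was not tested.

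No centrosome gene passed the test between the groups. At an adjusted p under 0.05 stood 0 of 38 members (edgeR quasi-likelihood test with Benjamini-Hochberg adjustment over all genes), and 0 of the 14451 tested genes (0.00%). At an unadjusted p under 0.05 stood 0 members as well, against 3.38% of all tested genes. DESeq2 also passed 0 members and gave no adjusted p for 30 members. At an unadjusted p under 0.05 it had 1 member, against 642 of the 14451 tested genes. With limma-voom both counts of members were 0, against 551 of the 14451 tested genes at an unadjusted p under 0.05. The smallest unadjusted p among the members was 0.0501, that of Akap9. Fitted log2 differences ran from -0.62 (Ofd1) to 0.58 (Tubgcp6).

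The intervals of the differences were often narrow. For 29 of the 38 members the 95% interval of the log2 difference, not adjusted for the number of genes, lay wholly within a 2-fold change in either direction, against 45.6% of all tested genes. The other 9 were Tubgcp6, Nedd1, Haus6, Camsap2, Ofd1, Nin, Ninl, Cntln and Plk4. The median SE of a log2 difference was 0.254 over the members and 0.341 over all tested genes, and 34 members had a mean CPM above the median of the tested genes (28.6 CPM). A difference smaller than these intervals was not detectable with 3 libraries per group.

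**Figure D1:**
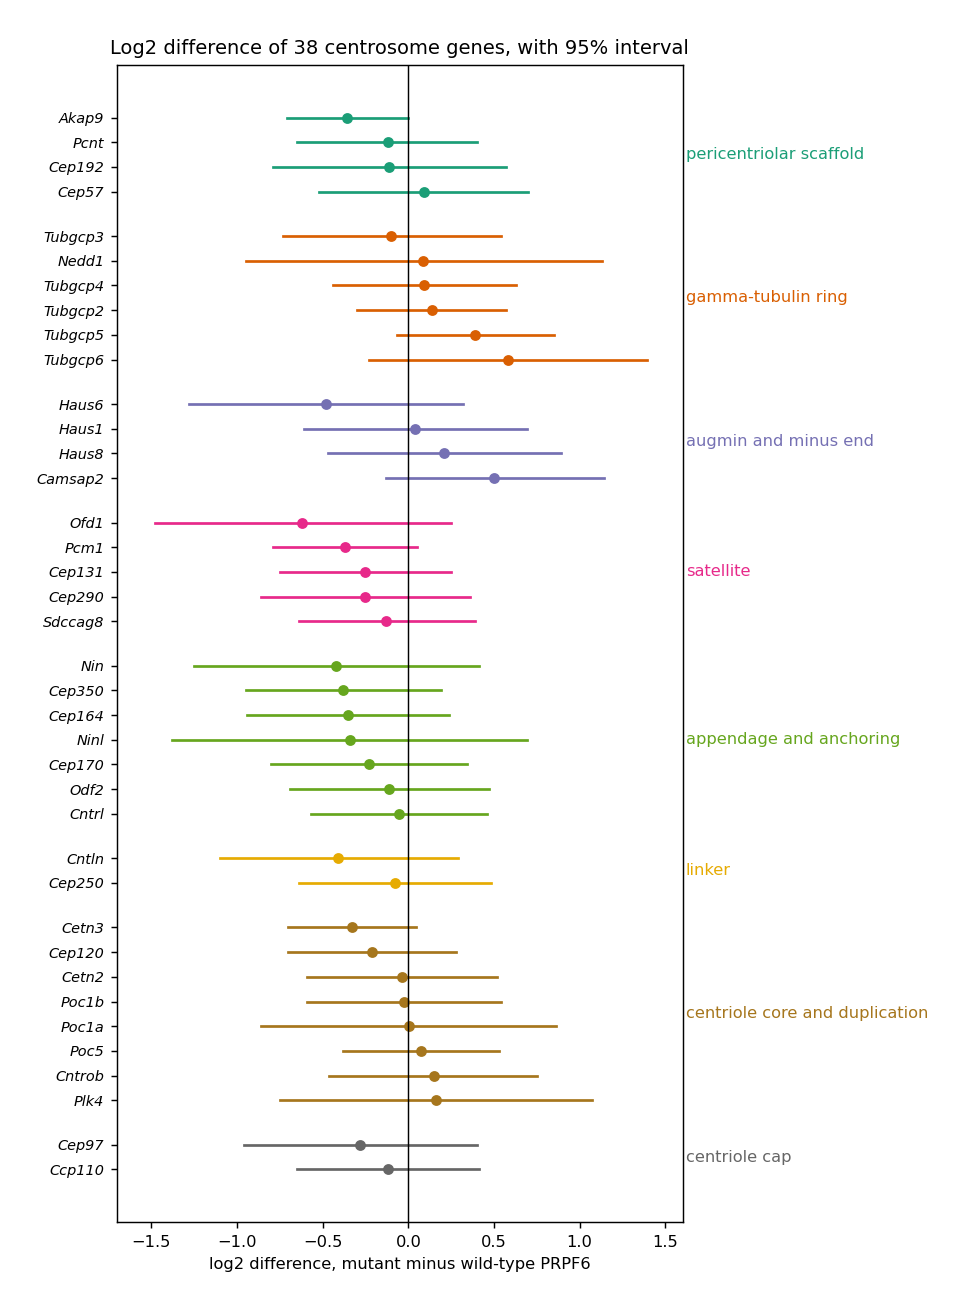
Fitted log2 difference (mutant minus wild-type PRPF6, horizontal axis) of each of the 38 genes, grouped by role, with points for the fitted value and lines for its 95% interval. The interval of every gene reaches 0, that of Akap9 only just (upper end 0.00011), and all satellite, appendage and linker genes have points below 0.

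The members split by role in the direction of their fitted differences, with no test of the split. Of 38 members 13 had a fitted log2 difference above 0 and 25 below 0, where 49.8% and 50.2% of all tested genes did. The median was -0.11 over the members and -0.0013 over all tested genes. All 5 satellite genes (median -0.25), all 7 appendage and anchoring genes (median -0.34) and both linker genes (median -0.24) had fitted values below 0. Among the gamma-tubulin ring genes 5 of 6 were above 0 (median 0.11), as were 3 of 4 augmin and minus-end genes (median 0.13). The 8 centriole genes were split evenly, 4 above and 4 below (median -0.011). Of the 4 scaffold genes 1 was above 0 (median -0.12), and both cap genes were below 0 (median -0.20). Centrosome genes of the same roles outside the 38 were divided as follows. Above 0 were 5 of 8 other satellite genes (median 0.084), 3 of 4 other linker genes (median 0.35) and 4 of 11 other appendage genes (median -0.036). Of these appendage genes above 0, Ccdc68 was near the floor, averaging 0.986 CPM with mutant and 0.233 CPM with wild-type PRPF6. Above 0 were also 2 of 4 other ring genes (median -0.040) and 2 of 9 other augmin and minus-end genes (median -0.049). In the roles that remain, 5 of 6 other scaffold genes (median 0.15) and 12 of 18 other centriole genes (median 0.12) were above 0. So were 3 of 4 other cap genes (median 0.26). Where most members of a role had the same direction, most of the other genes shared it for the appendage genes only. Leaving out mutant replicate 3 left 6 of 38 members above 0, and leaving out wild-type replicate 3 left 8; leaving out mutant replicate 1 gave 18. The roles were assigned with earlier results of these data known, and none of these counts is support for a difference between roles.

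Only 3 members had groups that did not overlap, 1 higher and 2 lower with mutant PRPF6, against 9.14% of all tested genes (4.60% higher and 4.54% lower). They were Akap9, Cetn3 and Tubgcp5, a share of the members close to that of all genes. Leaving out a library leaves fewer values that can overlap, so each count has its own share of all tested genes. Leaving out mutant replicate 1, 2 or 3 in turn, 4, 5 and 7 members did not overlap, against 16.5%, 23.7% and 18.6% of all tested genes. Leaving out wild-type replicate 1, 2 or 3 in turn, 5, 7 and 9 members did not overlap, against 17.5%, 18.4% and 19.1%. The promoters of these 3 genes are shown because they are the members whose libraries separated by group. Each is the 250 bases before the RefSeq transcription start, 5′ to 3′ on the plus strand of GRCm38.p6, with capitals for matches to 5 motifs on either strand. The windows are chr5:3927936-3928185 for Akap9, chr13:81782997-81783246 for Cetn3 and chr7:55793875-55794124 for Tubgcp5.
Akap9: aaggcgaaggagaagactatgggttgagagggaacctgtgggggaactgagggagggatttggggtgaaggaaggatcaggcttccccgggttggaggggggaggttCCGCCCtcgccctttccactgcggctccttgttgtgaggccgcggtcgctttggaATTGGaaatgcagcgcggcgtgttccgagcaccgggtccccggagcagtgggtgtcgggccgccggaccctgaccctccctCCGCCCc
Cetn3: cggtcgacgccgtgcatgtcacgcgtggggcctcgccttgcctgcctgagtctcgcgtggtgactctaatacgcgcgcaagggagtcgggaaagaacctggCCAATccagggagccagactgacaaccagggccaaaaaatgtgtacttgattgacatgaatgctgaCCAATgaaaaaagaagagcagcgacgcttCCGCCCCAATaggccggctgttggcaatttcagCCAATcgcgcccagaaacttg
Tubgcp5: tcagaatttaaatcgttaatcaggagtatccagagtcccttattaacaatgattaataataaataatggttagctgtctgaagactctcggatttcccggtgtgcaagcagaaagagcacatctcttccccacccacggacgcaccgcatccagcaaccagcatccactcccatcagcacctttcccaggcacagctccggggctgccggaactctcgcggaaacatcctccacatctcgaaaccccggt
The motifs were the CCAAT box (CCAAT), the CHR element of cell cycle genes (TTTGAA), the E2F motif (TTTCGCGC or TTTGGCGC), the CRE (TGACGTCA) and the GC box (GGGCGG). The Cetn3 window held 4 matches to CCAAT, all on the plus strand, and 1 reversed GC box that overlapped the CCAAT nearest to it. All of these matches lay past the gene start in the GENCODE annotation, 81783077, which falls inside the window. The Akap9 window also runs past its GENCODE gene start, 3928054. Parts of these windows are therefore within the annotated genes. The Akap9 window held 1 reversed CCAAT and 2 reversed GC boxes, and in the Tubgcp5 window none of the 5 motifs was found. Among all 32851 promoter windows 33.8% held a CCAAT, 16.0% a CHR element, 32.7% a GC box, 1.55% a CRE and 0.654% an E2F motif. Of the 29 members with at least 1 window 15 held a CCAAT, 17 a GC box, 4 a CHR element, 1 a CRE and 0 an E2F motif. A match is only a match of letters, and a gene with several start sites had several windows. The counts of members are per gene, over 39 windows, and the shares of all promoters are per window. They are therefore not directly comparable.

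The pericentriolar scaffold genes encode the large coiled-coil proteins on which the pericentriolar material is built. Akap9 (chromosome 5, 3928054 to 4081310, plus strand, GRCm38), whose protein anchors kinases and gamma-tubulin complexes at the centrosome and Golgi, was at 276, 300.3 and 286 CPM in the mutant libraries, against 436, 351 and 318 CPM in the wild-type libraries. All mutant libraries lay below all wild-type libraries, and the mutant libraries were close together. The means were 288 ± 12.1 CPM with mutant and 368 ± 60.5 CPM with wild-type PRPF6 (SD, n = 3 each). The log2 difference was -0.36 ± 0.16 (SE; adjusted p = 1.00, edgeR). Leaving out each library in turn gave -0.45 to -0.22, the value nearest to 0 without wild-type replicate 1. Of its annotated exon bases 0.8% overlap those of Cyp51 on the other strand.

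Pcnt (chromosome 10, 76351263 to 76442786, minus strand), which encodes pericentrin, was at 69.9, 77.7 and 92.7 CPM in the mutant libraries, against 111, 85.9 and 65.1 CPM in the wild-type libraries. The groups overlapped, with both the highest and the lowest library among the wild types, and the log2 difference was -0.12 ± 0.23 (SE). Its sign turned without wild-type replicate 1 (0.086). Cep192, which recruits mitotic kinases to the centrosome, averaged 37.9 ± 7.35 CPM with mutant and 40.9 ± 14.0 CPM with wild-type PRPF6 (SD, n = 3 each). Cep57, another pericentriolar protein gene, averaged 75.4 ± 26.2 and 70.8 ± 10.5 CPM. Its mutant libraries spread widely, from 55.5 CPM in replicate 1 to 105 CPM in replicate 3.

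**Figure D2:**
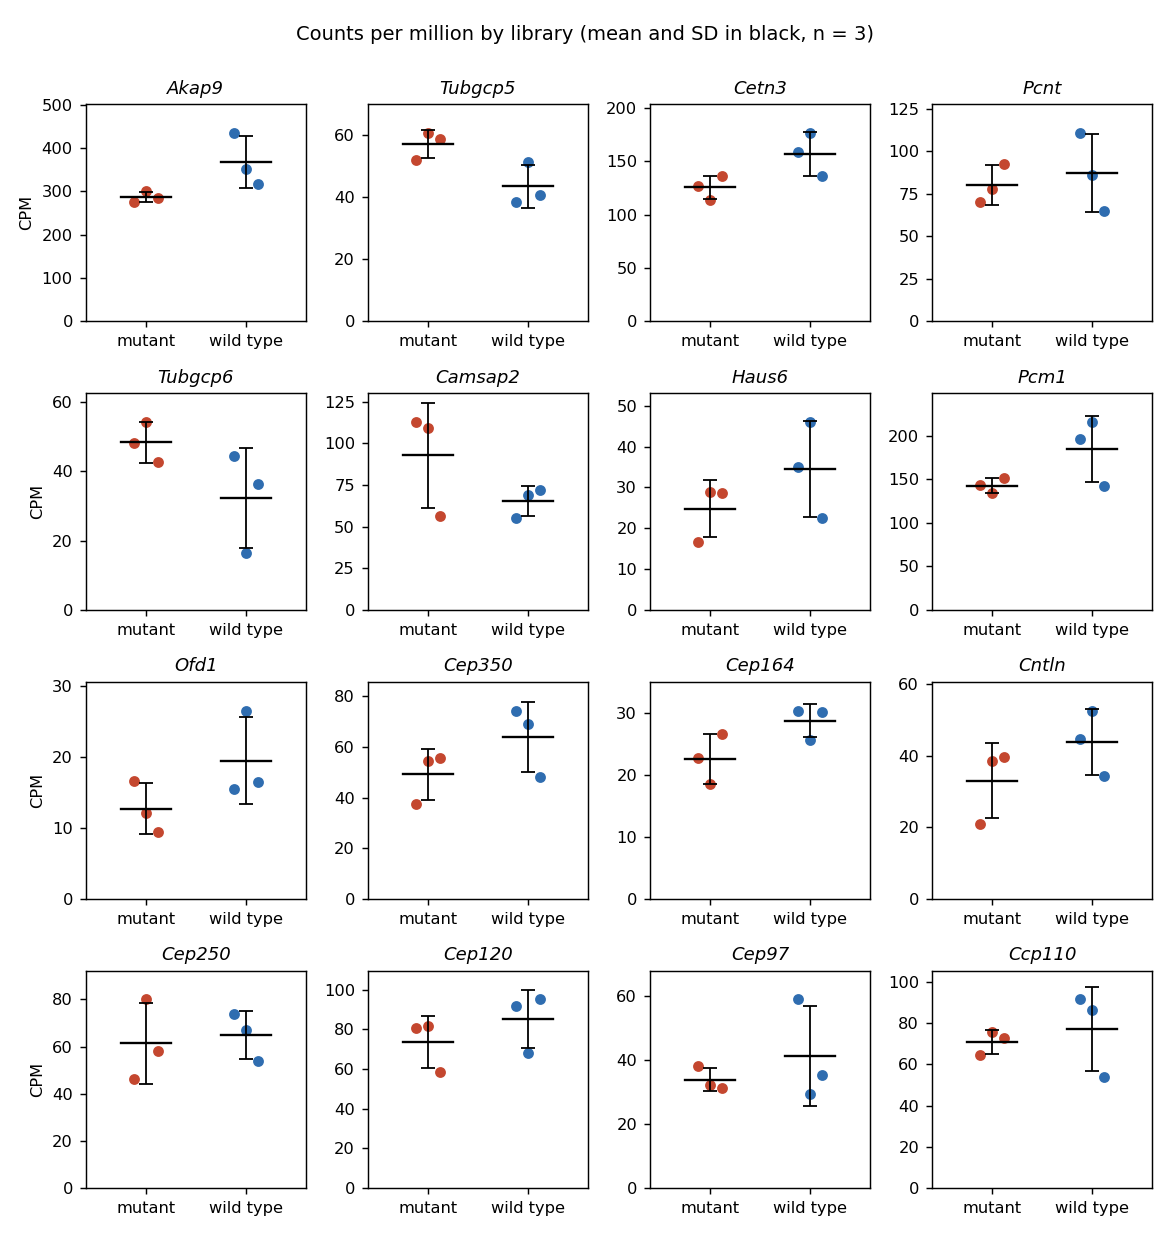
CPM (vertical axes, each from 0) of 16 members in the mutant PRPF6 libraries (left) and the wild-type PRPF6 libraries (right), with points for libraries and black lines for the mean and SD (n = 3). Points of the groups are separate in Akap9, Tubgcp5 and Cetn3 and overlap in the other 13.

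The gamma-tubulin ring nucleates microtubules, and the Tubgcp genes encode the proteins that arrange gamma-tubulin into it. Tubgcp5 (chromosome 7, 55794154 to 55831677, plus strand) was at 51.9, 60.7 and 58.6 CPM in the mutant libraries, against 38.3, 51.2 and 40.7 CPM in the wild-type libraries. Every mutant library lay above every wild-type library, by a small gap between mutant replicate 1 and wild-type replicate 2. The log2 difference was 0.39 ± 0.20 (SE), with a 95% interval of -0.065 to 0.85 and adjusted p = 1.00 (edgeR), and it was 0.31 to 0.53 with each library left out in turn. Tubgcp6 (chromosome 15, 89098357 to 89123112, minus strand) was at 48.0, 54.3 and 42.6 CPM in the mutant libraries, against 44.4, 16.4 and 36.2 CPM in the wild-type libraries. Wild-type replicate 2 was far below the rest. The log2 difference was 0.58 ± 0.35 (SE) with all libraries, 0.26 without that library and up to 0.88 without another. Some counts of Tubgcp2, Tubgcp4 and Tubgcp6 were not whole, since RSEM divides reads shared between genes. Rounding changed these counts by no more than 0.0489%. That value does not measure how many of their reads were shared.

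The other ring genes differed less between the groups than within them. Tubgcp2 averaged 123 ± 9.87 CPM with mutant and 111 ± 23.1 CPM with wild-type PRPF6, Tubgcp3 70.8 ± 24.8 and 75.6 ± 5.71 CPM, and Tubgcp4 70.6 ± 17.1 and 66.3 ± 10.7 CPM (SD, n = 3 each). Of the annotated exon bases of Tubgcp4, 25.4% overlap Trp53bp1 on the other strand, and without a known strand setting the reads of the genes cannot be told apart. Nedd1, whose protein brings the ring to the centrosome, was at 57.1, 57.8 and 82.7 CPM in the mutant libraries and at 26.3, 107 and 52.5 CPM in the wild-type libraries (named after its values were seen). The wild-type libraries alone spanned a range of 4.09-fold, among the widest of all members. Of the 6 ring genes 3 had fitted values above 0 without wild-type replicate 3, and 4 without wild-type replicate 1 or mutant replicate 3.

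Per transcript length, the ring genes kept a similar order in both groups. In CPM per kb of the longest coding transcript, Tubgcp2 was at 40.0 ± 3.23 with mutant and 36.4 ± 7.55 with wild-type PRPF6, above Tubgcp3 at 18.7 ± 6.54 and 19.9 ± 1.51 (SD, n = 3 each). Tubgcp4 was at 16.6 ± 4.03 and 15.6 ± 2.53 CPM per kb and Tubgcp5 at 14.6 ± 1.17 and 11.1 ± 1.76. Tubgcp6 was lowest, at 6.33 ± 0.769 and 4.24 ± 1.88 CPM per kb. Tubgcp2 stood above and Tubgcp6 below the rest in both groups. Between these, neighbours in the order were within their spread in the mutant group, and in the wild-type group the gaps slightly exceeded it. As background, the ring is known to hold more copies of the Tubgcp2 and Tubgcp3 proteins than of the other 3. Tubg1, the main gamma-tubulin gene, was at 65.8 ± 20.8 CPM per kb with mutant and 82.2 ± 14.1 CPM per kb with wild-type PRPF6, above all 5 Tubgcp genes (named as background, outside the rule for named genes).

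**Figure D3:**
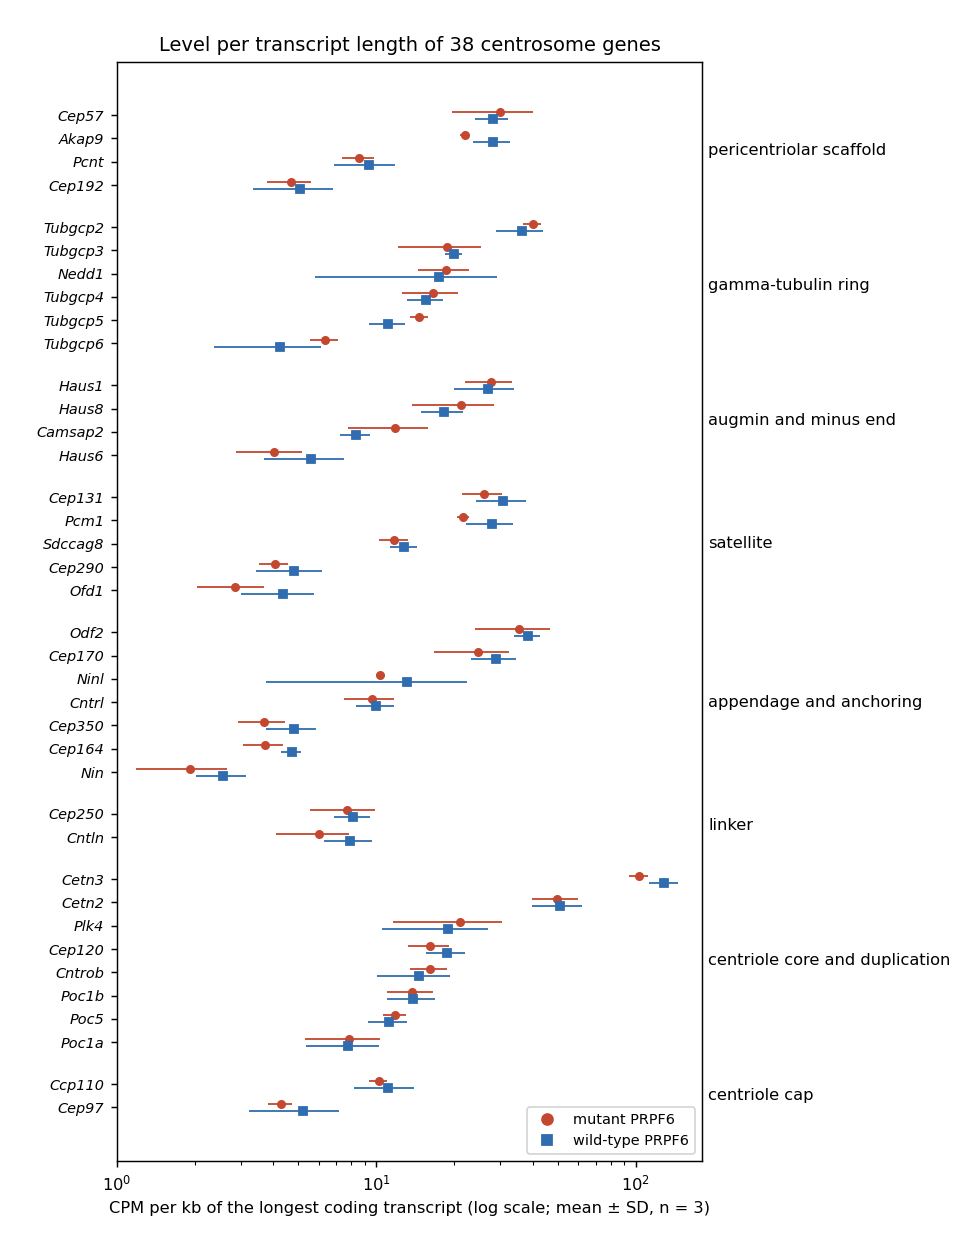
Level of each gene per length in CPM per kb of the longest coding transcript (log axis), by role, with circles for mutant and squares for wild-type PRPF6 (mean ± SD, n = 3). Cetn3 is the highest, at 103 with mutant and 129 with wild-type PRPF6, and Nin the lowest, at 1.92 and 2.57.

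Augmin is the complex that starts new microtubules on the sides of existing ones, and Camsap2 binds and steadies free microtubule minus ends. Camsap2 (chromosome 1, 136268123 to 136346104, minus strand) was at 113, 109 and 56.5 CPM in the mutant libraries, against 55.2, 68.9 and 71.7 CPM in the wild-type libraries. Only mutant replicate 3 overlapped the wild-type libraries. The log2 difference was 0.50 ± 0.28 (SE), and 0.76 without mutant replicate 3. Leaving out the library that overlapped widens the difference by construction, so the second value is no support for a difference. Haus6, an augmin subunit that binds the gamma-tubulin ring, was at 16.7, 28.9 and 28.7 CPM in the mutant libraries, against 35.0, 46.1 and 22.5 CPM in the wild-type libraries. Its groups overlapped through wild-type replicate 3, and the log2 difference was -0.48 ± 0.35 (SE). Haus1, a further subunit, averaged 34.0 ± 6.99 CPM with mutant and 33.0 ± 8.59 CPM with wild-type PRPF6 (SD, n = 3 each). Haus8, the subunit that binds microtubules, averaged 42.5 ± 14.8 CPM with mutant and 36.7 ± 6.80 CPM with wild-type PRPF6.

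Satellite genes summed to nearly the same level in the 3 mutant libraries. Their summed level was 316, 316 and 311 CPM in the mutant libraries, against 439.7, 410.1 and 319 CPM in the wild-type libraries. The sums of the groups did not overlap, though wild-type replicate 3 lay just above the mutant libraries. In every other role the sums overlapped, and 0 of the 5 satellite genes had groups that did not overlap. The separation of the sums was not tested and is no support for a difference. Pcm1 makes up a large part of this sum and encodes the scaffold on which satellites form (chromosome 8, 41239752 to 41332344, plus strand). It was at 143, 134 and 151 CPM in the mutant libraries, against 196, 216 and 142 CPM in the wild-type libraries. Wild-type replicate 3 overlapped the mutant libraries, and the log2 difference was -0.37 ± 0.18 (SE; unadjusted p = 0.0766). Without wild-type replicate 3, the library that overlapped, it was -0.52, which is further from 0 by construction and no support for a difference.

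Ofd1, a satellite and distal centriole gene on the X chromosome (166390033 to 166440704, minus strand), had the lowest fitted value of all members. It was at 16.6, 12.2 and 9.40 CPM in the mutant libraries, against 15.5, 26.6 and 16.5 CPM in the wild-type libraries. The groups overlapped through mutant replicate 1, and the log2 difference was -0.62 ± 0.38 (SE), between -0.85 and -0.33 with each library left out in turn. Cep131 averaged 93.0 ± 16.6 CPM with mutant and 111 ± 24.2 CPM with wild-type PRPF6 (SD, n = 3 each). Cep290, a gatekeeper of the cilium base, averaged 33.2 ± 4.25 and 39.4 ± 11.1 CPM, and Sdccag8 32.6 ± 4.16 and 35.6 ± 4.26 CPM. These 3 had differences within the spread between libraries.

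Appendage and anchoring genes hold microtubules on the older centriole or dock it to the membrane. Cep350 (chromosome 1, 155844964 to 155973255, minus strand), a large microtubule-anchoring protein gene, was at 37.5, 54.6 and 55.5 CPM in the mutant libraries, against 74.4, 69.2 and 48.3 CPM in the wild-type libraries. Cep164, a marker of the distal appendages that is needed for cilium formation, was at 22.8, 18.5 and 26.6 CPM in the mutant libraries, against 30.4, 25.7 and 30.2 CPM in the wild-type libraries. In each gene a single wild-type library lay within the range of the mutant libraries, and the log2 differences were -0.38 ± 0.25 and -0.35 ± 0.26 (SE). Odf2, on which both kinds of appendage depend, averaged 141 ± 45.1 CPM with mutant and 152 ± 17.1 CPM with wild-type PRPF6 (SD, n = 3 each). Cep170, a subdistal appendage gene, averaged 171 ± 54.8 CPM with mutant and 201 ± 39.2 CPM with wild-type PRPF6, and Cntrl, which encodes centriolin, 73.4 ± 16.0 CPM with mutant and 76.2 ± 12.8 CPM with wild-type PRPF6. The log2 difference of Cep170 was -0.23 with all libraries and -0.52 without mutant replicate 2, its highest mutant library. Leaving out the highest mutant library lowers the value by construction.

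Nin, which encodes ninein of the subdistal appendages, averaged 19.0 ± 7.30 CPM with mutant and 25.5 ± 5.57 CPM with wild-type PRPF6 (SD, n = 3 each). Its paralogue Ninl was at 53.0, 53.8 and 50.8 CPM in the mutant libraries and at 120.2, 50.7 and 29.0 CPM in the wild-type libraries (named after its values were seen). The wild-type libraries of Ninl held the widest range of any member, 4.15-fold, and its sign turned without wild-type replicate 1 (0.40). Per length, Ninl was above Nin in all 6 libraries, by 2.25-fold to 11.7-fold.

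The linker ties the centrioles together between divisions. Cntln (chromosome 4, 84884309 to 85131921, plus strand) was at 21.1, 38.7 and 39.6 CPM in the mutant libraries, against 44.8, 52.7 and 34.3 CPM in the wild-type libraries, a log2 difference of -0.41 ± 0.30 (SE). Cep250, which encodes the linker protein C-Nap1, was at 46.1, 80.0 and 58.3 CPM in the mutant libraries, against 74.0, 67.0 and 54.0 CPM in the wild-type libraries, a log2 difference of -0.080 ± 0.25 (SE). In both genes the lowest library was mutant replicate 1 and the groups overlapped. Of the annotated exon bases of Cep250, 11.1% overlap a gene on the other strand.

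Over the 14 satellite, appendage and linker genes, a set formed after their values were seen, 14 of 14 fitted values were below 0 with a median of -0.30. Leaving out mutant replicate 1 gave 11 of 14 below 0, leaving out wild-type replicate 1 gave 12 and wild-type replicate 2 gave 13, and each of the other libraries 14. The median was then -0.18 (mutant replicate 1 left out) or -0.091 (wild-type replicate 1 left out). Summed, these genes were at 789.9, 1065 and 958 CPM in the mutant libraries, against 1278, 1130 and 929 CPM in the wild-type libraries. The sums of the groups overlapped. The lowest sum was in mutant replicate 1 and the highest in wild-type replicate 1, which also had the lowest and the highest sum over the 9 young neuron markers. Single markers of that list differed, and Tubb3 was lowest in wild-type replicate 1. The part of the mix of cells in these values was not tested. In such sorted samples fewer cells of a type and less RNA per cell cannot be told apart.

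**Figure D4:**
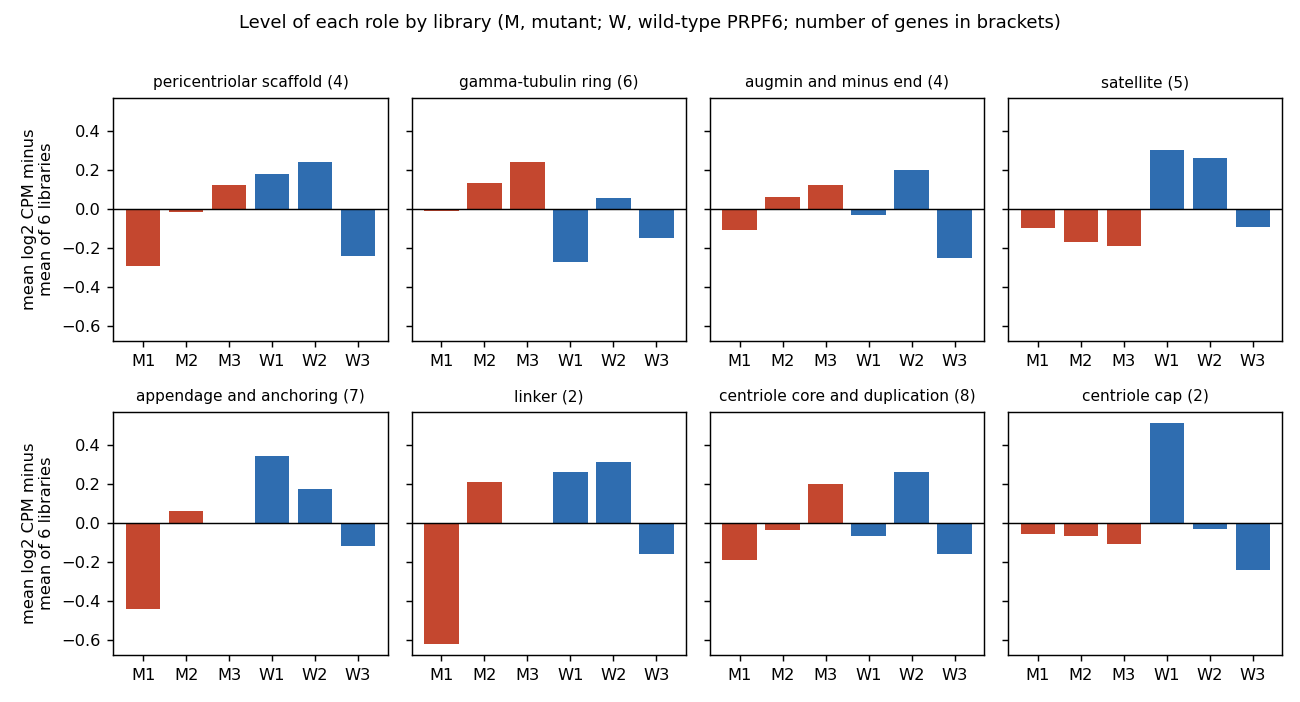
Mean log2 CPM of the genes of each role in each library, relative to the mean of the 6 libraries (vertical axis), for mutant (M1 to M3) and wild-type PRPF6 replicates (W1 to W3). Satellite genes are below 0 in all 3 mutant libraries and also in W3, appendage and linker genes are lowest in M1 (-0.44 and -0.62), and the ring genes are highest in M3 (0.24).

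Centriole genes cover the small centrins, the wall and lumen proteins, and the kinase that starts duplication. Cetn3 (chromosome 13, 81783077 to 81797155, plus strand), a calcium-binding centrin, was at 127, 114 and 136 CPM in the mutant libraries, against 159, 177 and 136 CPM in the wild-type libraries. The groups did not overlap, but mutant replicate 3 and wild-type replicate 3 were level after rounding. The means were 126 ± 10.9 CPM with mutant and 158 ± 20.6 CPM with wild-type PRPF6 (SD, n = 3 each). The log2 difference was -0.33 ± 0.16 (SE; unadjusted p = 0.0773, adjusted p = 1.00, edgeR). With each library left out in turn it was -0.42 to -0.24. Cetn2, the other centrin of most cells, averaged 64.2 ± 12.9 and 65.7 ± 14.4 CPM, and per length Cetn3 was above it by 1.86-fold to 3.38-fold in the 6 libraries. Among the centrins outside the list, Cetn4 was at 0.703 to 1.41 CPM with mutant and 1.00 to 1.90 CPM with wild-type PRPF6. Cetn1, known from the testis, had a count of 0 in every library, which allows up to 0.0684 CPM in the shallowest library (3 counts, counting error only).

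Cep120 (chromosome 18, 53681723 to 53744608, minus strand), which acts in centriole elongation, was at 80.4, 81.5 and 58.3 CPM in the mutant libraries, against 91.7, 68.2 and 95 CPM in the wild-type libraries. The groups overlapped, and the log2 difference was -0.21 ± 0.21 (SE). Cntrob, which encodes a daughter centriole protein, averaged 62.2 CPM with mutant and 56.2 CPM with wild-type PRPF6, a log2 difference of 0.15 ± 0.26 (SE). Poc5, a centrin-binding protein gene, averaged 61.4 ± 6.24 CPM with mutant and 58.3 ± 9.83 CPM with wild-type PRPF6 (SD, n = 3 each). Of the annotated exon bases of Poc5, 25.7% overlap Ankdd1b on the other strand. The paralogues Poc1a and Poc1b, whose proteins stabilise the centriole, were almost level between the groups. Poc1a averaged 18.2 ± 5.84 and 18.2 ± 5.74 CPM and Poc1b 47.1 ± 9.53 and 47.9 ± 10.1 CPM, with log2 differences of 0.0022 ± 0.37 and -0.024 ± 0.25 (SE). Their 95% intervals, -0.86 to 0.86 and -0.59 to 0.54, do not show that the groups were equal. Poc1b also shares annotated exon bases with Galnt4 on the same strand.

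Plk4, the kinase that starts centriole duplication, differed more within the groups than between them (named after its values were seen). It was at 43.4, 67.5 and 108 CPM in the mutant libraries and at 53.6, 97.9 and 44.2 CPM in the wild-type libraries, a log2 difference of 0.16 ± 0.40 (SE). The topoisomerase gene Top2a, the most abundant listed marker of G2 and M phase, was at 262, 385 and 520.1 CPM in the mutant libraries, against 320.5, 486 and 296 CPM in the wild-type libraries. The cyclin gene Ccnb1, the next most abundant, was at 245, 301 and 578 CPM in the mutant libraries, against 248, 389.8 and 241 CPM in the wild-type libraries. All 3 genes were highest in mutant replicate 3 and next highest in wild-type replicate 2. Sums over 10 markers of G2 and M phase were 1582, 2256 and 3972 CPM in the mutant libraries and 1947, 2974 and 1908 CPM in the wild-type libraries, and sums over 10 S phase markers were 1662 to 3167 and 1871 to 2738 CPM. Cep57, Haus8, Tubgcp3, Cntrl and Poc1a were also highest in mutant replicate 3 and next highest in wild-type replicate 2. Mutant replicate 3 was the highest library for 7 of 38 members and for 17.8% of all tested genes. The share of all tested genes with this order of libraries was not counted. The part of the cell cycle in these values was not tested.

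The cap proteins CP110 and Cep97 sit on the end of the centriole and hold back cilium growth. Cep97 (chromosome 16, 55899888 to 55934855, minus strand) was at 37.9, 32.1 and 31.3 CPM in the mutant libraries, against 58.8, 29.4 and 35.1 CPM in the wild-type libraries. Ccp110 (chromosome 7, 118712552 to 118737024, plus strand) was at 64.5, 75.5 and 73.0 CPM in the mutant libraries, against 91.5, 86.2 and 53.9 CPM in the wild-type libraries. In both genes the wild-type libraries enclosed the mutant ones. The log2 differences were -0.28 ± 0.30 and -0.12 ± 0.23 (SE), and both signs turned without wild-type replicate 1 (0.069 and 0.019).

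Library by library, the extremes of the members were spread unevenly. Mutant replicate 1 was the lowest of the 6 libraries for 14 of 38 members and the highest for 2, while it was the lowest for 25.5% and the highest for 23.3% of all tested genes. Wild-type replicates 1 and 2 were the highest for 12 and 11 members, against 20.3% and 11.7% of all tested genes. Summed over all members, the level was 2396, 2808 and 2830 CPM in the mutant libraries, against 3108, 3117 and 2514 CPM in the wild-type libraries. The lowest sums of their groups were in mutant replicate 1 and wild-type replicate 3. Other libraries stood apart in other markers, such as mutant replicate 2 in microglia markers and mutant replicate 3 in markers of G2 and M phase. Without mutant replicate 1 and wild-type replicate 3, a choice made after the data were seen, 14 of 38 members had fitted values above 0, the median was -0.17, and 10 members had groups that did not overlap, against 29.5% of all tested genes. The highest library exceeded the lowest by a median of 1.82-fold over the members (1.29-fold for Sdccag8 to 4.15-fold for Ninl), and of 2.20-fold over all tested genes.

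Fitted values below 0 were more frequent among the long members, a split made after the values were seen and not tested. Longest coding transcripts ran from 1226 to 13307 bases among the members, with a median of 4824 bases, against 3144 bases over the tested genes. Of the 19 members above 4824 bases 16 had fitted values below 0 (median -0.25), and of the 19 shorter ones 9 (median 0.0022). Most of the satellite, appendage and linker genes are among the long members, so the splits by length and by role share many genes. They were not separated. Among all tested genes 54.3% of those longer than 4824 bases and 48.9% of the shorter ones were below 0. Spearman's rho between length and log2 difference was -0.404 over the 38 members and -0.0223 over all tested genes, where genes share the same libraries. After trends with length and GC content were taken out, 14 of the 19 long members were below 0 (median -0.16). With the trends kept, leaving out wild-type replicate 1 gave 11 of 19 below 0 (median -0.013), and leaving out mutant replicate 1 gave 13.

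**Figure D5:**
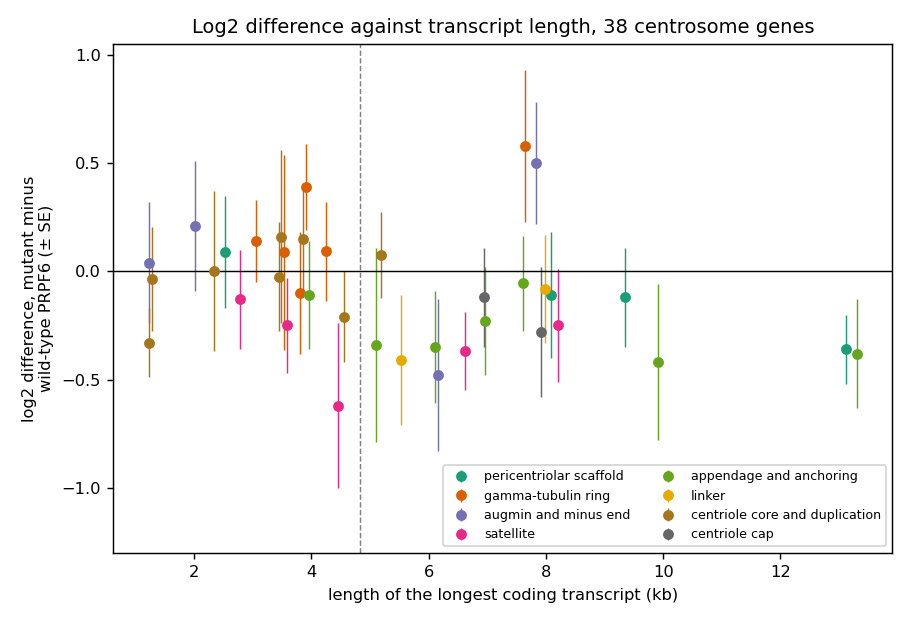
Log2 difference (mutant minus wild-type PRPF6, ± SE) of the 38 genes against the length of the longest coding transcript in kb, coloured by role, with a dashed line at the median length of the members. To the right of the line 16 of 19 genes lie below 0, the exceptions being Poc5, Tubgcp6 and Camsap2.

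Other centrosome genes were divided more evenly, and the difference from the members was not tested. Of 64 tested genes from a separate list 36 had fitted values above 0 and 28 below (median 0.052), with 0 past an adjusted p of 0.05. At an unadjusted p under 0.05 stood 2 higher and 1 lower, against 2.18% and 1.20% of all tested genes, and 2 higher and 3 lower had groups that did not overlap, against 4.60% and 4.54% of all tested genes. The list holds only the genes that the members left, so neither stands for the whole centrosome. Bbs4, a satellite and ciliary trafficking gene, was at 28.9, 31.5 and 23.6 CPM in the mutant libraries, against 42.8, 40.8 and 48.7 CPM in the wild-type libraries. Its groups were well apart, with a log2 difference of -0.66 ± 0.22 (SE; adjusted p = 1.00, edgeR).

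Tbc1d31, a satellite gene, was at 43.6, 29.9 and 27.6 CPM in the mutant libraries, against 18.3, 24.4 and 17.9 CPM in the wild-type libraries. Crocc, which encodes rootletin of the linker and ciliary rootlet, was at 76.7, 59.4 and 33.6 CPM in the mutant libraries, against 40.5, 23.5 and 30.7 CPM in the wild-type libraries. Tbc1d31 did not overlap between the groups and Crocc did, with log2 differences of 0.74 ± 0.29 and 0.84 ± 0.34 (SE). Fgfr1op, a centriole anchoring gene counted here with the satellite genes, had a log2 difference of 0.60 ± 0.27 (SE). Sclt1 and Ttbk2, genes of distal appendages, had log2 differences of -0.45 ± 0.22 and -0.47 ± 0.23 (SE). Sclt1 and Ttbk2 did not overlap between the groups, and Fgfr1op did.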

How the data were processed

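Per the submitters' processing notes, the authors made expected counts per gene with RSEM on mm10 and deposited them without scaling for depth. RSEM divides reads shared between genes, so 8.15% to 9.15% of values per library were not whole, including some of 5 members. The aligner, annotation, strand setting and filters are not stated in the labels or files. The libraries came from very small amounts of RNA, amplified with a SMART-Seq kit and run together on 1 lane, per the series' design text. Groups and replicate numbers were taken from the sample titles.

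Expected counts were rounded, filtered with filterByExpr (14451 genes left) and scaled with TMM, and 1 count was worth 0.0164 to 0.0228 CPM. Differences were tested with edgeR 4.0.16 in R 4.3.3 (quasi-likelihood test with robust estimation, two-sided, group as the only term, Benjamini-Hochberg over all tested genes, threshold 0.05). The SE of a log2 difference is its size divided by the root of F, and the 95% interval uses the test's degrees of freedom. The common biological coefficient of variation was 0.663. Amplified reads without molecular identifiers are not independent molecules. Libraries of a group differed far beyond counting noise.

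Values in every library are given for members whose groups did not overlap or with an unadjusted p under 0.05, and for the 2 members of smallest unadjusted p in each role. Up to 6 other centrosome genes of smallest p are named, and of a marker list at most the 2 genes most abundant over all libraries. The members and lists were chosen with earlier results of these data known. Cep295 and Deup1 were not analysed here. Lengths, coordinates and overlaps are from GENCODE M21 (GRCm38) and promoters from RefSeq (GRCm38.p6, 29 of 38 members). Steps were tested on simulated data. DESeq2 1.42.0 and limma 3.58.1 served as alternatives.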

Additional observations from a re-analysis of the deposited data

How the results depend on the processing

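No alternative gave a centrosome gene an adjusted p under 0.05, though DESeq2 gave no adjusted p for 30 of the 38 members. In the main edgeR fit none was under 0.1. DESeq2 called 10 genes of all those tested and every other alternative 0. The count of members at an unadjusted p under 0.05, 0 in the report, was 1 (Akap9) with DESeq2 size factors, upper-quartile factors, a filter of 1 CPM in 3 libraries or DESeq2, and 1 (Tubgcp5) with length and GC trends removed. It was 0 to 2 with each library left out, and 1 without both mutant replicate 1 and wild-type replicate 3, where 10 members had groups that did not overlap (29.5% of all tested genes). Of all tested genes 642 were at an unadjusted p under 0.05 with DESeq2 and 551 with limma-voom. For the other alternatives the share of all tested genes is not given here, so these counts of members are not read as a result. With each library left out 4 to 9 members did not overlap (16.5% to 23.7% of all tested genes), 6 to 18 had fitted values above 0, and the median log2 difference was -0.23 to -0.035. With all libraries 12 to 15 were above 0 and the median was -0.13 to -0.081. Of the 38 members 18 kept their sign in all 16 alternatives, 4 above and 14 below 0. A replicate block left 0 calls, 12 members above 0 and a median of -0.10. Same-numbered libraries did not deviate together (r = 0.0543, 0.0609 and -0.256 over genes), so the numbers were not treated as pairs. The median log2 difference over all genes was at most 0.027 in size in the main fit and every alternative. The overlap of groups was not recomputed where only the filter or the test changed. With 3 libraries per group and this spread, differences well under 2-fold were not detectable for most members.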
